A study of Mus musculus with 3 samples.

Results

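The genes described here are 31 members of cholesterol and fatty acid synthesis, measured in single cells of the mouse mandibular condyle, the jaw side of the temporomandibular joint. They were taken by symbol from a fixed list, and each of the 31 symbols was found among the 32285 genes of the count tables. The list was drawn up by pathway, with earlier results of these data known. It holds 17 enzymes of the sterol pathway, 4 regulators and carriers, and 10 enzymes of fatty acid synthesis. These 10 make, lengthen or desaturate fatty acids, or supply acetyl-CoA or NADPH for their synthesis. The donors were wild-type C57BL6 mice of 3 ages: E16.5, which is embryonic day 16.5, P0, the day of birth, and 13w, adults aged 13 weeks. None of the groups carried a transgene or a treatment, as far as the labels say. For each stage, tissue of 7 to 20 mice was pooled and digested, live cells (positive for Calcein, negative for DAPI) were sorted, and 1 droplet library was made with 10x Genomics 3′ chemistry. A stage is therefore 1 library, and differences between stages have no replicate check.

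Cholesterol synthesis starts from acetyl-CoA, runs through mevalonate and the isoprenoids to squalene, and ends with a series of sterol-modifying steps. Its genes are switched on together by SREBP2, a membrane-bound transcription factor that the escort protein SCAP carries out of the endoplasmic reticulum when sterols are low, and that the Insig proteins hold back when sterols are plentiful. SREBP1, the product of Srebf1, acts more on fatty acid synthesis, which also starts from acetyl-CoA and passes through acetyl-CoA carboxylase, fatty acid synthase, elongases and desaturases. Cartilage, like other tissues, uses cholesterol for membranes and for hedgehog signalling, and Col10a1, the collagen of hypertrophic cartilage, marks chondrocytes that have stopped dividing and enlarged.

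The promoters of 4 members on which the results below turn are shown first. A promoter window ran from 250 bases before to 50 after a start, 300 bases in all, on the sense strand of the gene and from RefSeq on mouse build GRCm38.p6. Capitals mark the letters TCACNCCAC, a classical sterol response element, or CCAAT, the core of NF-Y sites, on either strand (CCAAT on the other strand reads ATTGG). Hmgcs1, the HMG-CoA synthase at the entry to the mevalonate pathway, lies on the plus strand with its window at chr13:119690101-119690400. Idi1, the isopentenyl diphosphate isomerase, has its window at chr13:8885356-8885655 on the plus strand. Insig1 has its window at chr5:28071162-28071461 on the plus strand. Fads2, a desaturase of polyunsaturated fatty acids, has its window at chr19:10101454-10101753 on the minus strand.
Hmgcs1: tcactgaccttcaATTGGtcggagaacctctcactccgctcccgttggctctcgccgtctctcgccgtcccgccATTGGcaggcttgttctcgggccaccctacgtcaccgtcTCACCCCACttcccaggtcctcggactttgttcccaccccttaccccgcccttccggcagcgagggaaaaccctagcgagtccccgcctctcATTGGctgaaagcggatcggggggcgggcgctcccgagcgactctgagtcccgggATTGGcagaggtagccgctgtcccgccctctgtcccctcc
Idi1: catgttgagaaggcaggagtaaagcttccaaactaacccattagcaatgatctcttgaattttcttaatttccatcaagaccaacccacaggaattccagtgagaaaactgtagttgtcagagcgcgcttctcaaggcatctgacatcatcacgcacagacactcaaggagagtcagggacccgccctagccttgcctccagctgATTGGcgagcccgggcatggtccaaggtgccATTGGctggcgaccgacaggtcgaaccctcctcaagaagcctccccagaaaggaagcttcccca
Insig1: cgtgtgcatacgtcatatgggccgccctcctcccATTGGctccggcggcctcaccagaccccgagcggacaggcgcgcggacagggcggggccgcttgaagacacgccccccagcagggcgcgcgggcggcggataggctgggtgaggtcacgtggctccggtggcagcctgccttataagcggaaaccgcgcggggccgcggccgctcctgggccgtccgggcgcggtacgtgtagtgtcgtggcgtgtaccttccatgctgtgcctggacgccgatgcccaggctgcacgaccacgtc
Fads2: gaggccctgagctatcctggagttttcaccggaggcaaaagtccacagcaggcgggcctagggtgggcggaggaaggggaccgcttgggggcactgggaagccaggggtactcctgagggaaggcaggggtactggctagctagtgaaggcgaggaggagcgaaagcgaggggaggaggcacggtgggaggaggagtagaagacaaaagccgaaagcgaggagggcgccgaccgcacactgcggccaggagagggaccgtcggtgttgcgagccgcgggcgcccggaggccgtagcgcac

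The Hmgcs1 window held 1 sterol response element and 4 CCAAT matches, the Idi1 window 2 CCAAT matches, the Insig1 window 1 and the Fads2 window 0. A window was found for 24 of the 31 members, and TCACNCCAC stood in 1 of them (4.17%), against 1.44% of 27025 genes with a window. CCAAT was found in 20 of 24 members (83.3%), against 41.1% of all genes, and in 13 of 14 sterol members but 4 of 7 fatty acid members. GGGCGG, a box of the Sp1 type searched on both strands, was also found in 20 of 24 members (83.3%), against 38.2% of all genes, with the same split of 13 of 14 and 4 of 7. These are matches of letters within short windows and were not tested as binding sites.

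Cells with fewer than 500 detected genes or more than 10% of UMIs from mitochondrial genes were left out, which kept 4562 of 5458 barcodes at E16.5, 3999 of 4853 at P0 and 8028 of 8899 at 13w, from 103827875, 98486931 and 115836876 UMIs in the tables. The median depth of kept cells was 17402, 17954 and 11010 UMIs in the E16.5, P0 and 13w library, and any pair of libraries shared 10 to 15 barcodes. Cells were split by the 2 collagens of the selection rule. Chondrocytes had at least 3 Col9a1 UMIs per 10000, and were called Col10a1-high with at least 10 Col10a1 UMIs per 10000 and Col10a1-low below that. The remaining cells are called Col9a1-low. Col10a1-high chondrocytes numbered 249, 557 and 187 in the E16.5, P0 and 13w library. Col10a1-low chondrocytes numbered 765, 1189 and 1434 in the same libraries, and Col9a1-low cells 3548, 2253 and 6407. The 8 chondrocyte markers, Col9a1 among them, summed to 41244, 52193 and 63742 CPM (a gene's UMIs per 1000000 UMIs of that class and library) in the Col10a1-high class at E16.5, P0 and 13w, and to 15361, 28675 and 53579 CPM in the Col10a1-low class. Col9a1-low cells are a mixture of other cell types, and at 13w they still had Col2a1 at 3190 CPM and Col10a1 at 379 CPM. Whether these UMIs came from cartilage cells in this class or from free RNA was not tested. In the Col9a1-low class the 5 neutrophil markers summed to 946 CPM at E16.5, 5.60 CPM at P0 and 5302 CPM at 13w. Markers of fat cells (Adipoq, Plin1, Cidec, Lep and Retn) summed to below 1 CPM in each class and library and Lep was at 0 throughout.

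Chondrocytes carried more of these transcripts than Col9a1-low cells. Counts were summed per class and library, and the 9 sums were compared by the quasi-likelihood test of edgeR with the library as a block, adjusted over the 15183 genes tested (Benjamini-Hochberg). At adjusted p below 0.05, 24 of the 31 members rose in Col10a1-high chondrocytes against Col9a1-low cells and 0 fell (0 also at an unadjusted p below 0.05 and by DESeq2), while 18.3% of all genes tested rose and 22.5% fell. The members' median log2 fold change was 1.42, against -0.09 over all genes. In Col10a1-low chondrocytes 18 of the 31 rose and 0 fell against Col9a1-low cells, while 10.6% of all genes rose and 14.3% fell. The members' median was 0.89, against -0.05 over all genes. Each of the 31 members had a positive estimate in the second contrast, and 29 of 31 in the first, with Acaca and Elovl6 below 0. Within single libraries, by CPM, the lead was uneven (members with at least 10 CPM in either class). In Col10a1-low chondrocytes 30 of 30 were above Col9a1-low cells at E16.5, 24 of 30 at P0 and 26 of 29 at 13w. For the sterol enzymes this was 17 of 17, 11 of 17 and 15 of 16. In Col10a1-high chondrocytes it was 21, 28 and 25 of 30 members at E16.5, P0 and 13w.

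The sterol pathway gave 14 of the 24 calls in the Col10a1-high class and 9 of the 18 in the Col10a1-low class, out of 17 enzymes. Lss, the synthase that forms lanosterol, the first sterol of the pathway, had 40.8, 33.7 and 13.9 CPM in Col10a1-high chondrocytes at E16.5, P0 and 13w, against 14.9, 7.85 and 5.36 CPM in Col9a1-low cells. It was higher in the chondrocytes of all 3 libraries, with an edgeR log2 fold change of 2.05 ± 0.26 (SE; adjusted p = 0.00106). Dhcr7, the reductase at the end of the pathway, had 48.1, 31.2 and 13.5 CPM in Col10a1-high chondrocytes at E16.5, P0 and 13w, against 20.4, 9.52 and 7.57 CPM in Col9a1-low cells. Its log2 fold change was 1.64 ± 0.21 (SE; edgeR adjusted p = 0.000953). The lowest value in the chondrocytes, at 13w, lay below the highest in the other cells, at E16.5, so the difference shows within a stage and not across stages.

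Sc5d, a sterol desaturase near the end of the pathway, had 77.3, 76.5 and 53.8 CPM in Col10a1-high chondrocytes at E16.5, P0 and 13w, against 30.3, 13.7 and 26.7 CPM in Col9a1-low cells, and the groups did not overlap. Its edgeR log2 fold change was 2.03 ± 0.30 (SE; adjusted p = 0.00186). Fdps, the farnesyl diphosphate synthase at the branch between sterols and other isoprenoids, had 987, 370 and 204 CPM in Col10a1-low chondrocytes at E16.5, P0 and 13w, against 322, 214 and 127 CPM in Col9a1-low cells. Its edgeR log2 fold change in that contrast was 1.29 ± 0.22 (SE; adjusted p = 0.00595). Acat2, the thiolase that starts the pathway, Sqle, the squalene epoxidase, and Nsdhl, a sterol decarboxylase, were the 3 sterol enzymes not called in either class.

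Of the regulators and carriers, Stard4, a protein that carries sterols between membranes, stood out with the lowest adjusted p of the 31 in the Col10a1-high class. It had 101, 126 and 91.8 CPM in Col10a1-high chondrocytes at E16.5, P0 and 13w, 65.8, 37.1 and 67.9 CPM in Col10a1-low chondrocytes, and 30.4, 21.5 and 34.7 CPM in Col9a1-low cells. The Col10a1-high class lay above both other classes in each library. The edgeR log2 fold change against Col9a1-low cells was 2.30 ± 0.26 in the Col10a1-high class (SE; adjusted p = 0.000586) and 1.22 ± 0.25 in the Col10a1-low class (SE; adjusted p = 0.0115). Srebf1 had 29.7, 23.7 and 16.7 CPM in Col10a1-high chondrocytes at E16.5, P0 and 13w, against 14.0, 13.2 and 18.8 CPM in Col9a1-low cells. It was called with a log2 fold change of 0.96 ± 0.22 (SE; edgeR adjusted p = 0.0113), although at 13w it was lower in the chondrocytes on the CPM scale. Srebf2 was not called in either class (edgeR adjusted p = 0.0653 and 0.175).

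Among the 10 fatty acid enzymes, 7 rose in each chondrocyte class. Scd1, a stearoyl-CoA desaturase that makes monounsaturated fatty acids, had 168, 153 and 82.6 CPM in Col10a1-high chondrocytes and 203, 167 and 71.5 CPM in Col10a1-low chondrocytes at E16.5, P0 and 13w, against 29.1, 28.5 and 31.2 CPM in Col9a1-low cells. Both chondrocyte classes lay above the other cells in every library. The edgeR log2 fold changes were 2.45 ± 0.29 (SE; adjusted p = 0.000729) and 2.41 ± 0.29 (SE; adjusted p = 0.00195), the highest of the 31 in each contrast. Scd2, the related desaturase, had 796, 368 and 146 CPM in Col10a1-high chondrocytes and 1033, 315 and 180 CPM in Col10a1-low chondrocytes at E16.5, P0 and 13w, against 299, 131 and 89.1 CPM in Col9a1-low cells. Its log2 fold changes were 1.58 ± 0.19 and 1.60 ± 0.19 (SE; edgeR adjusted p = 0.000849 and 0.00198).

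Fads2 had 146, 124 and 26.7 CPM in Col10a1-high chondrocytes and 158, 158 and 32.8 CPM in Col10a1-low chondrocytes at E16.5, P0 and 13w, against 49.7, 44.3 and 19.1 CPM in Col9a1-low cells. It was higher in both chondrocyte classes at each stage, by 1.54 ± 0.22 and 1.66 ± 0.22 on the log2 scale (SE; edgeR adjusted p = 0.00168 and 0.00283). Me1, the malic enzyme that supplies NADPH for fatty acid synthesis, had 120, 58.9 and 85.9 CPM in Col10a1-high chondrocytes at E16.5, P0 and 13w, against 31.6, 26.9 and 48.1 CPM in Col9a1-low cells (edgeR log2 fold change 1.64 ± 0.24, SE; adjusted p = 0.00169). Fads1, the partner desaturase of Fads2, was called with 0.64 ± 0.17 in the Col10a1-high class and 0.99 ± 0.17 in the Col10a1-low class (SE; edgeR adjusted p = 0.0187 and 0.00655). Fasn, the fatty acid synthase, was just inside the threshold in both (edgeR adjusted p = 0.0474 and 0.0482). Acaca, the acetyl-CoA carboxylase, Acss2, an acetyl-CoA synthetase, and Elovl6, an elongase of saturated fatty acids, were called in neither class.

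**Figure D1:**
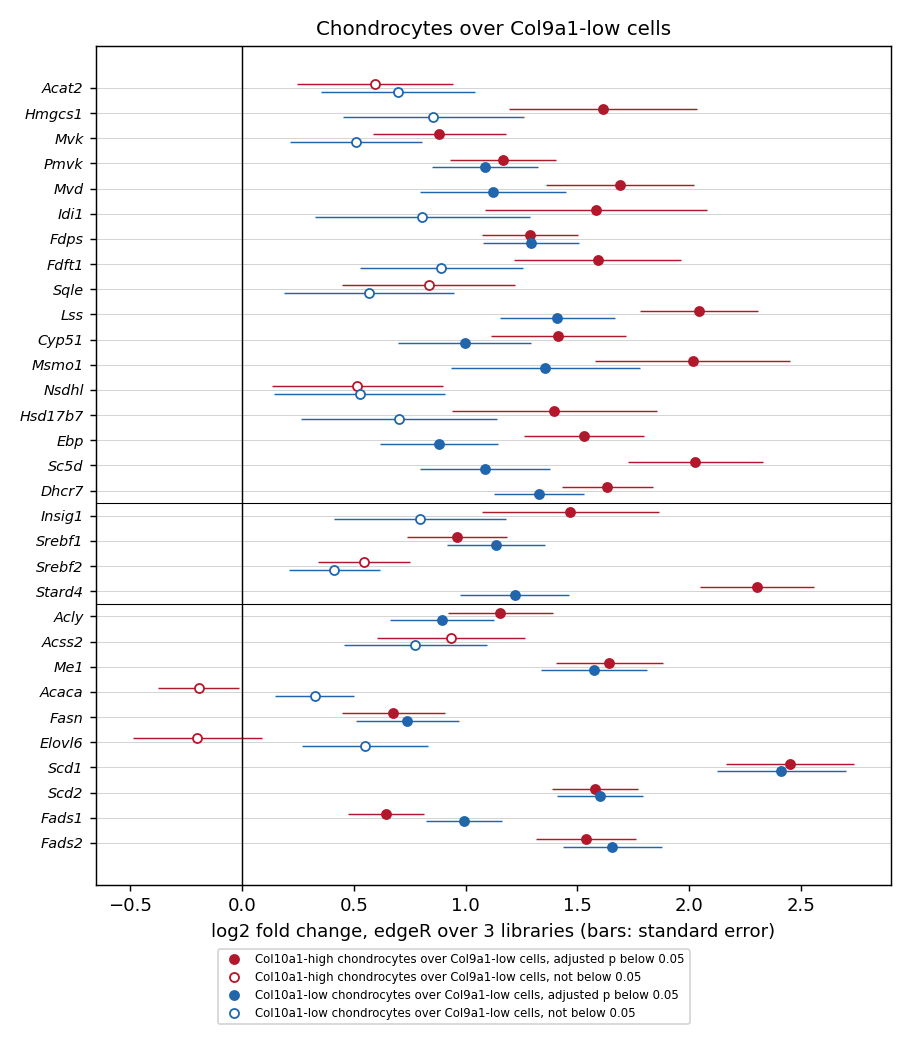
The log2 fold change of each member in Col10a1-high (red) and Col10a1-low (blue) chondrocytes over Col9a1-low cells, from edgeR over 3 libraries, with standard errors as bars; filled points have an adjusted p below 0.05. Horizontal lines part the sterol, regulator and fatty acid groups, and 24 red and 18 blue points are filled, each to the right of 0.

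Both counts fell when any library was left out, and most without P0. Without P0, 13 members were called in the Col10a1-high class and 0 in the Col10a1-low class, against 21 and 7 without E16.5 and 20 and 15 without 13w. Each such fit also rests on fewer sums, and the part of this in the lower counts was not tested. The scale also matters: the trimmed-mean factors used in edgeR moved the median of all genes by 0.37 and 0.25 on the log2 scale relative to library totals, and with totals 17 members rose and 1 fell in the Col10a1-high class and 11 rose in the Col10a1-low class. Depth moves with the classes, at medians of 35993 to 46514 UMIs per Col10a1-high cell, 22413 to 38424 per Col10a1-low cell and 9547 to 14937 per Col9a1-low cell. With each cell thinned to 3000 UMIs, 25 and 16 members were called. The share of all genes called was not computed for any of these settings, so the counts show only how the members' calls move.

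**Figure D2:**
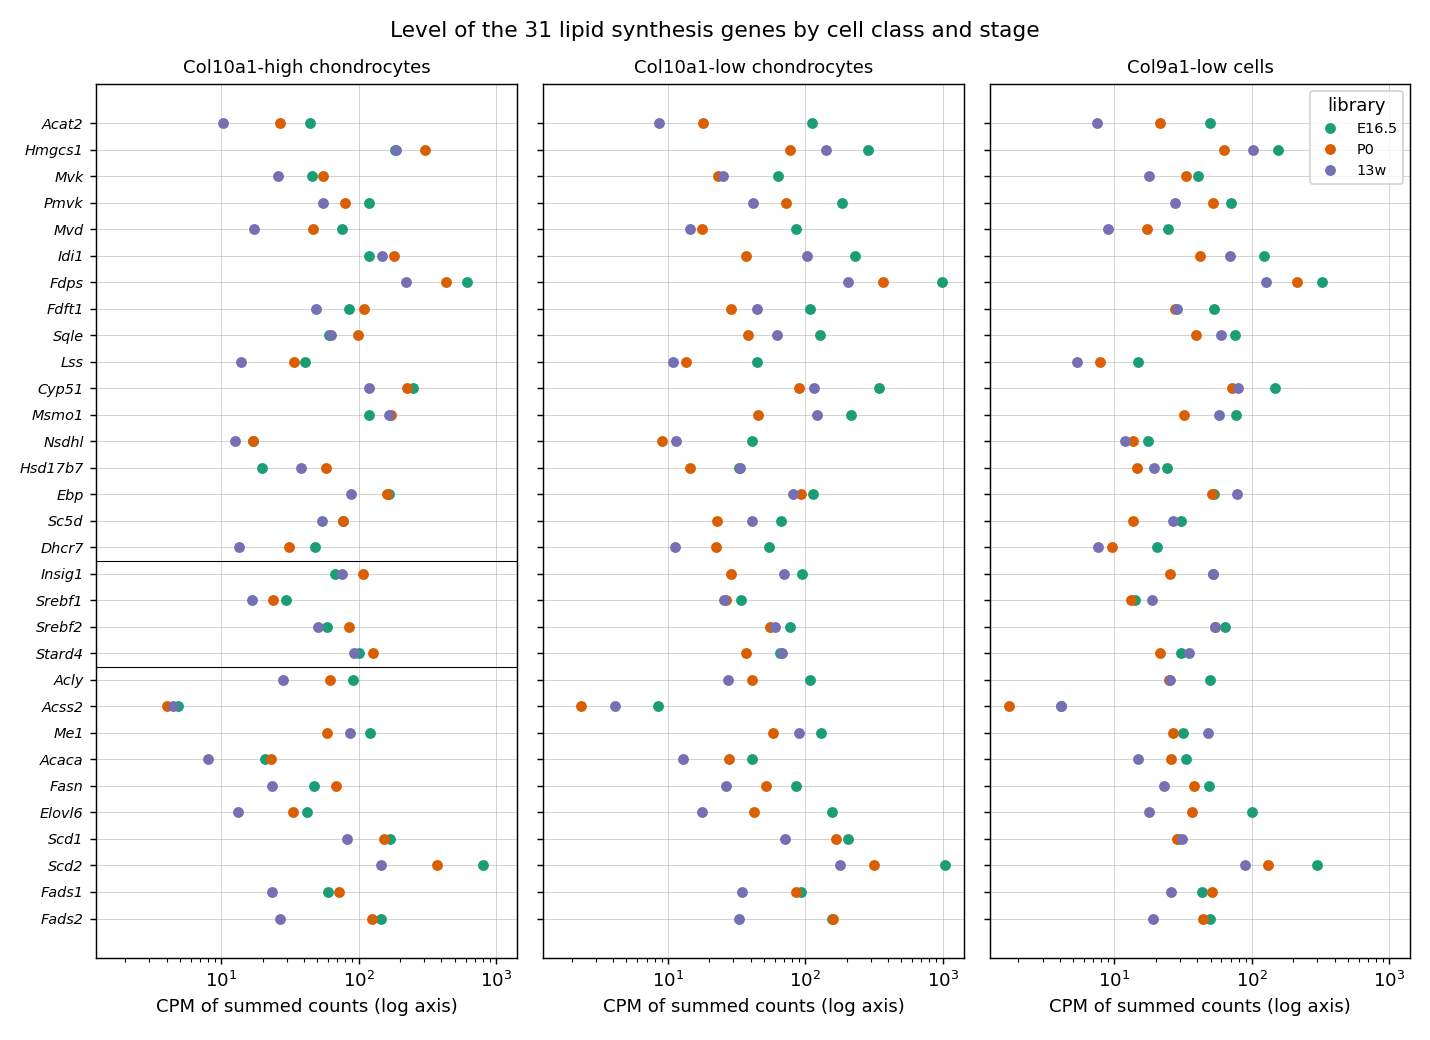
Levels of the 31 members in CPM on a log axis, 1 point per library and cell class, with E16.5 in green, P0 in orange and 13w in violet. In Col10a1-low chondrocytes the sterol genes of the E16.5 library lie far to the right of P0 (Idi1 at 37.2 CPM at P0 and 231 CPM at E16.5), which is not seen in Col10a1-high chondrocytes (180 CPM at P0 and 118 CPM at E16.5).

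Across stages the genes were compared as ratios of CPM between 2 libraries, with exact 95% conditional binomial intervals that cover counting error only. A gene counted as measured if the larger of its 2 levels reached 10 CPM, and as called if it also differed at least 2-fold with an interval that left out 1. Over all cells, 30 of the 31 members were measured, with Acss2 the exception at 5.40, 2.49 and 4.12 CPM at E16.5, P0 and 13w. Most members were lower at the later stage of each pair. At P0, 24 of 30 had a ratio below 1, and 4 were called lower and 0 higher than at E16.5, while 8.72% of all measured genes were called lower and 5.31% higher. The members' median log2 ratio was -0.65, against -0.13 over all genes. With trimmed-mean scaling 2 were called lower at P0. At 13w, 23 of 30 had a ratio below 1, and 12 were called lower and 0 higher than at P0, while 7.93% of all measured genes were called lower and 8.46% higher. Here the median was -0.52, against -0.13 over all genes. The count of 12 was 4 with trimmed-mean scaling, which shifted all ratios up by 0.16, and 6 when cells positive for other cell type markers were left out. That exclusion took 1106 cells at P0 and 1674 at 13w, against 69 and 412 without the mural and neural lists. The count was 12 again when those lists were not used. It was 7 when the 3 cell classes were given equal weight in each library. Col10a1-high and Col10a1-low chondrocytes made up 5.46% and 16.8% of cells at E16.5, 13.9% and 29.7% at P0, and 2.33% and 17.9% at 13w.

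Acat2 had 65.8 CPM at E16.5, 21.1 CPM at P0 and 8.04 CPM at 13w over all cells. It was lower at each step, by 3.11-fold at P0 against E16.5 (log2 ratio -1.64, interval -1.71 to -1.57) and by 2.63-fold at 13w against P0 (-1.39, -1.51 to -1.28). Elovl6 had 109 CPM at E16.5, 38.4 CPM at P0 and 17.6 CPM at 13w, and Scd2 had 553, 266 and 120 CPM at these stages. These 2 fatty acid genes were likewise lower at both steps, with log2 ratios of -1.51 and -1.12 for Elovl6 and -1.06 and -1.14 for Scd2. Idi1 had 151 CPM at E16.5, 69.6 CPM at P0 and 84.4 CPM at 13w, so that it was lower at P0 than at E16.5 (-1.12, -1.16 to -1.07) with no further decline at 13w.

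The other desaturases differed from Scd2 at the first step. Fads2 had 89.6 CPM at E16.5, 113 CPM at P0 and 23.7 CPM at 13w, which is the widest step of any member between P0 and 13w, 4.77-fold lower at 13w (log2 ratio -2.26, interval -2.32 to -2.19). Scd1 had 91.7, 118 and 46.6 CPM and Fads1 58.7, 71.1 and 28.5 CPM at E16.5, P0 and 13w. All 3 were somewhat above E16.5 at P0, below the 2-fold threshold, and then at least 2-fold lower at 13w than at P0 (log2 ratios -1.34 for Scd1 and -1.32 for Fads1). Fasn had 58.5, 50.6 and 24.0 CPM at E16.5, P0 and 13w and was 2.10-fold lower at 13w than at P0.

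Sterol enzymes called lower at 13w than at P0 besides Acat2 were Dhcr7, Mvd, Fdps, Lss and Pmvk. Dhcr7 had 32.7 CPM at E16.5, 20.1 CPM at P0 and 9.07 CPM at 13w, and Mvd, the mevalonate diphosphate decarboxylase, had 46.6, 23.8 and 11.1 CPM at these stages. Fdps had 535, 331 and 156 CPM at E16.5, P0 and 13w. The log2 ratios of 13w over P0 were -1.15 for Dhcr7, -1.09 for Mvd and -1.09 for Fdps. Hmgcs1 had 193 CPM at E16.5, 121 CPM at P0 and 120 CPM at 13w, and Sqle 88.0, 51.5 and 60.6 CPM at the same stages, so neither was called at either step.

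The regulators and carriers gave no call over all cells. Srebf1 had 21.2, 21.5 and 20.8 CPM and Srebf2 67.0, 61.2 and 55.6 CPM at E16.5, P0 and 13w. Insig1, itself a classical target of SREBP, had 65.2, 44.5 and 58.9 CPM, and Stard4 47.8, 51.4 and 48.2 CPM at these stages. The log2 ratios of the 4 genes lay between -0.55 and 0.41.

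The cell classes gave different ratios. Within Col10a1-low chondrocytes, 21 of the 30 measured members were called lower at P0 than at E16.5 and 0 higher, while 6.44% of all measured genes were called lower and 5.72% higher. The members' median log2 ratio was -1.44, against -0.09 over all genes. Of the sterol enzymes 16 of 17 were called lower, with Ebp, a sterol isomerase, the exception at -0.30. Within Col10a1-high chondrocytes 2 of 30 were called lower (Me1 and Scd2) and 1 higher (Hsd17b7), while 4.03% of all genes were called lower and 6.1% higher, and the members' median was -0.04, against -0.01 over all genes. In Col9a1-low cells 10 of 30 were called lower and 0 higher, while 7.27% of all genes were called lower and 5.44% higher, with a members' median of -0.66 against -0.15 over all genes. The count of 10 was 6 with trimmed-mean scaling and 16 when cells positive for other cell type markers were left out.

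Idi1 shows the contrast between the classes most plainly. In Col10a1-low chondrocytes it had 37.2 CPM at P0 and 231 CPM at E16.5, 6.21-fold lower at P0 (log2 ratio -2.63, interval -2.72 to -2.56). In Col10a1-high chondrocytes it had 180 CPM at P0 and 118 CPM at E16.5, a log2 ratio of 0.61 (0.52 to 0.70). Hmgcs1 had 77.9 CPM at P0 and 284 CPM at E16.5 in the Col10a1-low class (log2 ratio -1.87), and 302 CPM at P0 and 184 CPM at E16.5 in the Col10a1-high class (0.71). Its ratios, too, ran in opposite directions, although the second was below the 2-fold threshold. Sqle had 38.0 CPM at P0 and 129 CPM at E16.5 in the Col10a1-low class (-1.76), and 98.5 CPM at P0 and 61.0 CPM at E16.5 in the Col10a1-high class (0.69).

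Hsd17b7, a sterol ketoreductase, was called in opposite directions, with 58.0 CPM at P0 and 19.6 CPM at E16.5 in the Col10a1-high class (1.56, interval 1.35 to 1.78), and 14.5 CPM at P0 and 32.7 CPM at E16.5 in the Col10a1-low class (-1.18, -1.33 to -1.03). Insig1 had 28.8 CPM at P0 and 95 CPM at E16.5 in the Col10a1-low class (-1.72), and 107 CPM at P0 and 67.6 CPM at E16.5 in the Col10a1-high class (0.66). The 17 sterol enzymes as a list did not share one direction in the Col10a1-high class, with 8 log2 ratios above 0 and 9 below and a sum of 2101 CPM at P0 and 2083 CPM at E16.5. Scd2 was lower at P0 in each class, with 368 CPM at P0 and 796 CPM at E16.5 in the Col10a1-high class and 315 CPM at P0 and 1033 CPM at E16.5 in the Col10a1-low class. Fads2 had 158 CPM in the Col10a1-low class at both stages.

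The Col10a1-low chondrocytes of the 2 libraries also differed in other ways. The 6 cycling markers summed to 148 CPM at P0 and 456 CPM at E16.5 in this class, and the 8 chondrocyte markers to 28675 CPM at P0 and 15361 CPM at E16.5. With cells holding any UMI of Mki67 or Top2a left out, 20 of the 30 members were called lower at P0 in this class. The share of all genes called was not computed for this setting. The parts of cycling and of cartilage maturity in the difference were not tested.

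Between P0 and 13w the calls in the Col10a1-low class went both ways. Of its 30 measured members, 4 were called higher at 13w than at P0 (Idi1, Msmo1, Insig1 and Hsd17b7) and 6 lower (Acat2, Acaca, Elovl6, Scd1, Fads1 and Fads2), while 7.62% of all genes were called higher and 11.9% lower. With trimmed-mean scaling the balance turned, to 7 higher and 3 lower. The sterol enzymes had a median log2 ratio of 0.33, with 10 above 0 and 7 below, and their sum was 1073 CPM at 13w and 993 CPM at P0. The fatty acid enzymes had a median of -1.12, against -0.29 over all genes. Markers moved too in this class: the 5 hypertrophic markers summed to 30526 CPM at 13w and 2525 CPM at P0, mostly Ibsp, and the 6 osteoblast markers to 13986 CPM at 13w and 4382 CPM at P0. Their part in the result was not tested. Idi1 had 104 CPM at 13w and 37.2 CPM at P0 (1.48, interval 1.39 to 1.57). Msmo1, a sterol methyl oxidase, had 121 CPM at 13w and 45 CPM at P0 (1.43, interval 1.35 to 1.51). Insig1 had 69.9 CPM at 13w and 28.8 CPM at P0 (1.28), while Fads2 had 32.8 CPM at 13w and 158 CPM at P0 (-2.27). At 13w Idi1, Msmo1, Insig1 and Fads2 lay below their E16.5 levels in this class, while Hsd17b7 did not, with 33.5 CPM at 13w and 32.7 CPM at E16.5.

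In Col10a1-high chondrocytes 13 of 30 members were called lower at 13w than at P0 and 0 higher, while 17.7% of all genes were called lower and 6.13% higher. The members' median of -0.90 stood against -0.42 over all genes. With trimmed-mean scaling, which raised every ratio of this class by 0.34, 6 were called lower. The 5 hypertrophic markers summed to 91991 CPM at 13w and 12981 CPM at P0 in this class, with Ibsp alone at 84266 CPM at 13w. The 6 osteoblast markers summed to 8038 CPM at 13w and 2797 CPM at P0. Their part in the lower calls was not tested. Fads2 (26.7 CPM at 13w and 124 CPM at P0), Fads1 (23.4 CPM at 13w and 71.8 CPM at P0) and Fasn (23.4 CPM at 13w and 68.2 CPM at P0) had the lowest ratios, at -2.22, -1.62 and -1.54. In Col9a1-low cells 28 members were measured, since Lss and Dhcr7 too were below 10 CPM. Insig1 alone was called higher at 13w, with 52.1 CPM at 13w and 25.2 CPM at P0, and Acat2, Elovl6 and Fads2 were called lower, while 9.74% of all genes were called higher and 7.75% lower. When cells positive for other cell type markers were left out, 6 were called higher and 1 lower in these cells. Elovl6, Acat2 and Fads2 were thus called lower at 13w in all 3 classes.

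**Figure D3:**
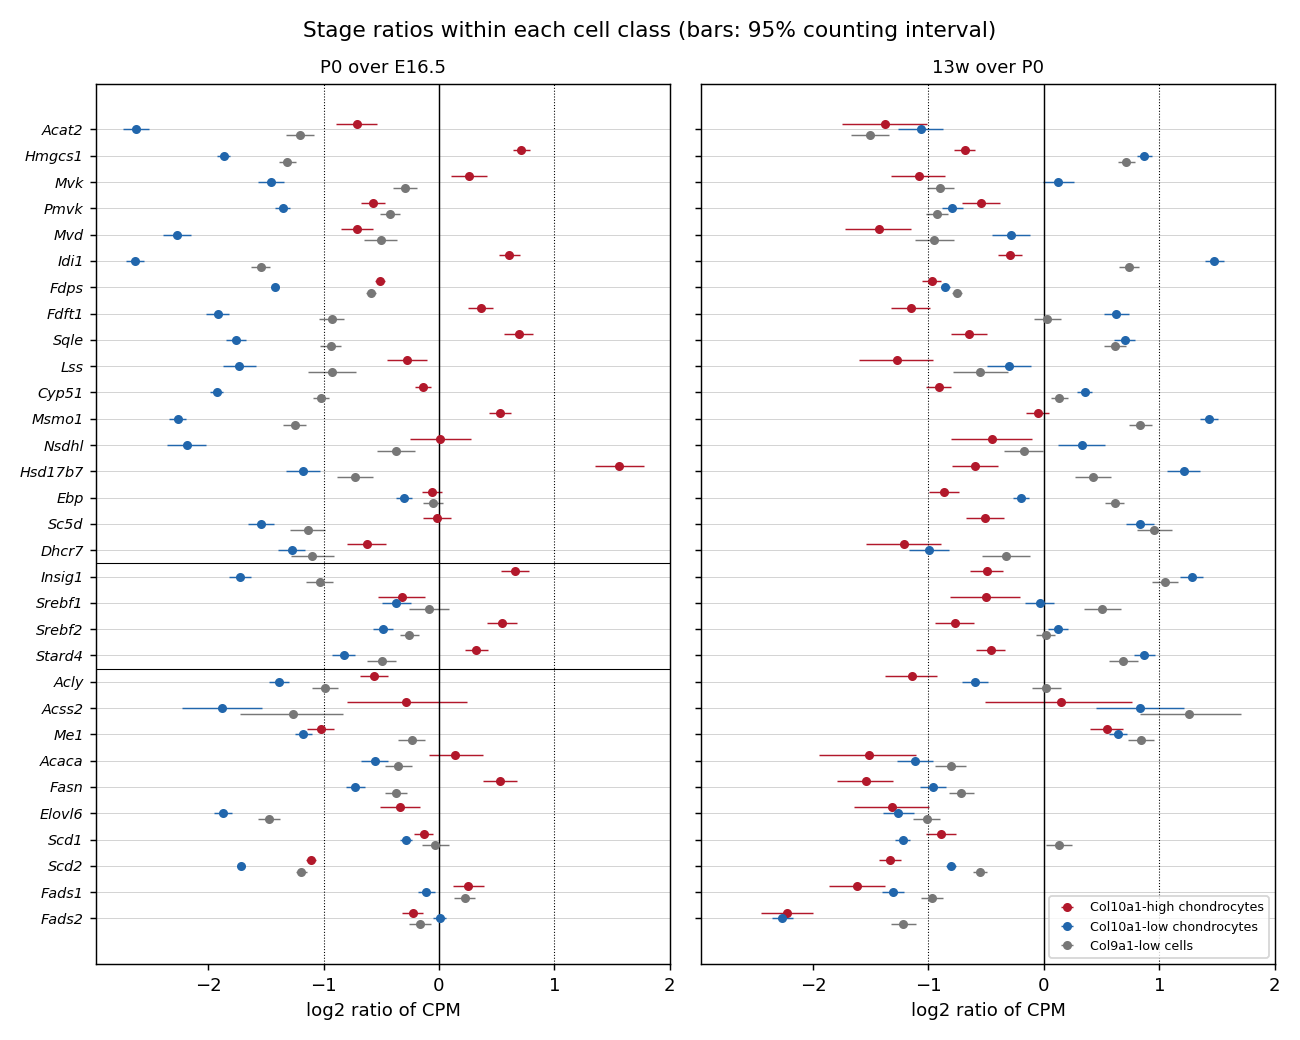
The log2 ratio of each member between stages within Col10a1-high (red), Col10a1-low (blue) and Col9a1-low (grey) cells, P0 over E16.5 on the left and 13w over P0 on the right, with 95% counting intervals; dotted lines mark 2-fold. On the left the blue sterol points reach -2.63 while the red sterol points lie between -0.71 and 1.56; on the right Fads2 is lowest in both chondrocyte classes.

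Trimmed-mean factors moved the median of all genes upward by 0.18 for P0 over E16.5 and by 0.16 for 13w over P0 in all cells, by 0.15 and 0.14 in Col9a1-low cells, by 0.07 and 0.25 in Col10a1-low chondrocytes and by 0.00 and 0.34 in Col10a1-high chondrocytes. The share of higher calls among all calls moved with it, being 59.9% against 37.9% by library totals for P0 over E16.5 in all cells, and 61.2% against 42.8% in Col9a1-low cells. For 13w over P0 it was 65.0% against 51.6% in all cells, 54.5% against 25.7% in Col10a1-high chondrocytes, 61.0% against 39.0% in Col10a1-low chondrocytes and 67.9% against 55.7% in Col9a1-low cells. The 21 lower calls in Col10a1-low chondrocytes at P0 were also 21 under that scaling.

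Set against each other within a library, Col10a1-high and Col10a1-low chondrocytes had a different order of most sterol enzymes at E16.5 and at P0. At E16.5, 0 of 30 measured members were called higher in the Col10a1-high class and 4 lower (Elovl6, Acat2, Nsdhl and Sqle), while 6.88% of all genes were called higher and 13.8% lower. These 4 lower calls were no larger a share than among all genes, and fewer were left with a higher Col9a1 threshold. The different order therefore rests on the sterol log2 ratios given below and not on the E16.5 calls. At P0, 13 were called higher and 0 lower, while 4.4% of all genes were called higher and 4.65% lower. At 13w, 0 were called in either direction, while 1.96% of all genes were called higher and 4.42% lower. The P0 calls were 11 of 17 sterol enzymes plus Insig1 and Stard4, and 0 of the 9 measured fatty acid enzymes. All 17 sterol log2 ratios were above 0 at P0, with a median of 1.32 against -0.11 over all genes, and 15 of 17 were below 0 at E16.5, with a median of -0.63 against -0.15. The within-library contrast was added after the values had been seen.

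At P0 Idi1 had 180 CPM in Col10a1-high and 37.2 CPM in Col10a1-low chondrocytes, a log2 ratio of 2.27. At E16.5 it had 118 CPM in the Col10a1-high class and 231 CPM in the Col10a1-low class, a log2 ratio of -0.97. Hmgcs1 had 302 CPM in the Col10a1-high class and 77.9 CPM in the Col10a1-low class at P0 (1.95), and 184 CPM in the Col10a1-high class and 284 CPM in the Col10a1-low class at E16.5 (-0.63). Both genes were higher in the Col10a1-high class at P0 and lower in it at E16.5. Sqle went past 2-fold in both directions by library totals, with log2 ratios of 1.37 at P0 and -1.08 at E16.5. Its E16.5 ratio lay close to the threshold. The trimmed-mean factors at E16.5, 0.975 in the Col10a1-high and 1.05 in the Col10a1-low class, move this ratio toward 0. Fasn had 68.2 CPM in the Col10a1-high class and 51.4 CPM in the Col10a1-low class at P0 (0.41), and 47.3 CPM in the Col10a1-high class and 85.0 CPM in the Col10a1-low class at E16.5 (-0.84). Srebf2, whose product drives the sterol genes, had log2 ratios of -0.40, 0.64 and -0.26 at E16.5, P0 and 13w, and Srebf1 of -0.20, -0.16 and -0.62. The Insig1 ratios were -0.49, 1.89 and 0.11 at the same stages.

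Over the 3 libraries together, this contrast gave no call for any member: by edgeR 0 of 31 were called in either direction, while 1.87% of all 15183 genes rose and 2.42% fell. At an unadjusted p below 0.05 there were 6, counted without regard to direction, and DESeq2 called 2. The share of all genes under either of these rules was not computed, so nothing is read from the 2 counts. Stard4 came nearest (log2 fold change 1.08 ± 0.25, SE; edgeR adjusted p = 0.0517) and was higher in the Col10a1-high class in 3 of 3 libraries. A stage-by-class term could not be tested, since each stage has 1 library.

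**Figure D4:**
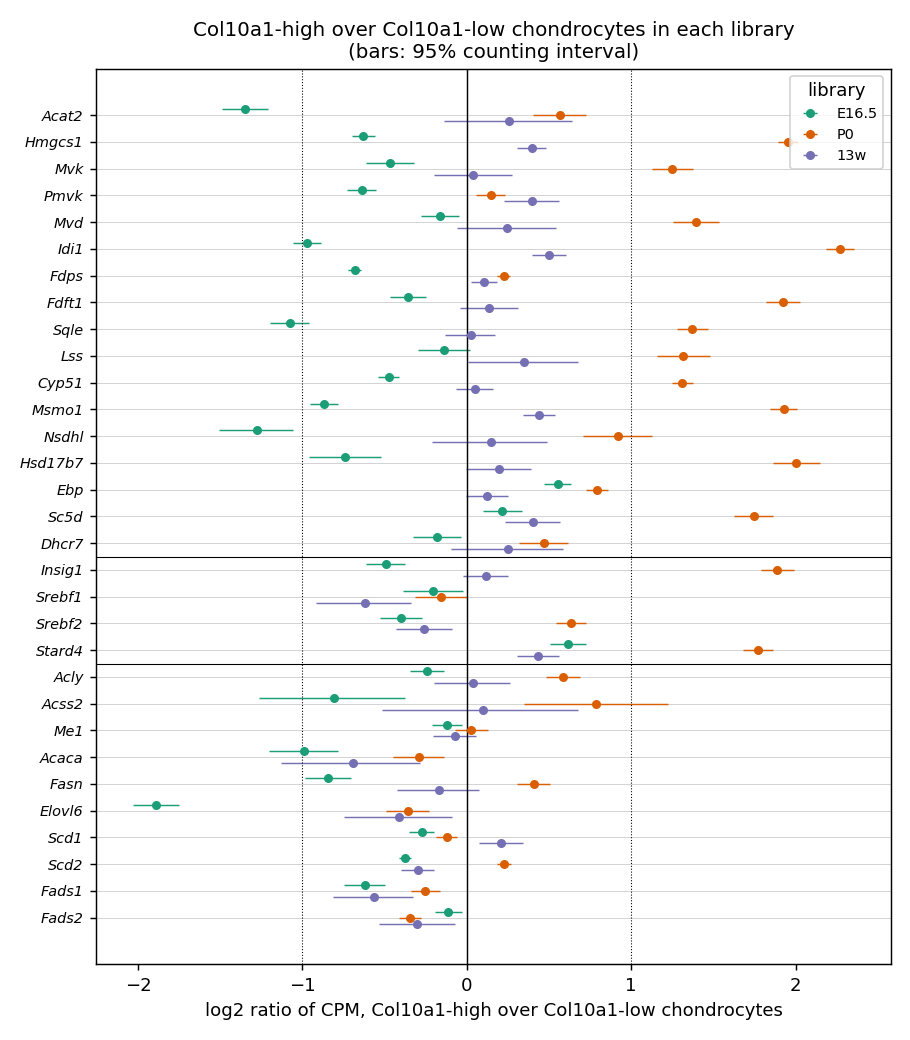
The log2 ratio of each member in Col10a1-high over Col10a1-low chondrocytes within the E16.5 (green), P0 (orange) and 13w (violet) library, with 95% counting intervals; dotted lines mark 2-fold. The orange sterol points reach 2.27, the green ones lie mostly left of 0, and below the second horizontal line the fatty acid genes show no orange point past 2-fold.

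The P0 sterol sum was graded with Col10a1 within the Col10a1-high class, but not among cells below its threshold. The bins below were not among the planned results, and they split the same cells again by a gene that defines the classes. Chondrocytes were placed in 6 bins of Col10a1 UMIs per 10000 (0, above 0 to 3, 3 to 10, 10 to 30, 30 to 100, and 100 or more). At P0 the 17 sterol genes summed to 1056, 982, 958, 1370, 2132 and 2997 CPM from the lowest to the highest bin. The 10 fatty acid genes summed to 946, 998, 797, 944, 971 and 991 CPM over the same bins. The sterol sum in the top bin, of 183 cells, was thus well above each other bin, while the fatty acid sum was nearly level. At E16.5 the sterol sum was 3631 CPM in the 469 cells without a Col10a1 UMI, then 2789, 1734, 1775, 2340 and 2162 CPM, and the fatty acid sum was 2067, 2027, 1788, 1591, 1518 and 1173 CPM. There the highest values of both arms lay in the cells with the least Col10a1. At 13w the sterol sum was 1029, 1127, 1175, 1357, 1171 and 1504 CPM, with 24 cells in the last bin, and the fatty acid sum lay between 402 and 520 CPM. Cycling markers summed to 38.9 CPM in Col10a1-high and 148 CPM in Col10a1-low chondrocytes at P0, and to 44.0 CPM in Col10a1-high and 456 CPM in Col10a1-low chondrocytes at E16.5. With cells holding any UMI of Mki67 or Top2a left out, 14 members were called higher in the Col10a1-high class at P0 and 4 lower at E16.5. At E16.5 this took out 19.7% of Col10a1-high and 45.4% of Col10a1-low chondrocytes, and at P0 22.1% and 29.9%. The share of all genes called was not computed for this setting, and the part of cycling was not tested.

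**Figure D5:**
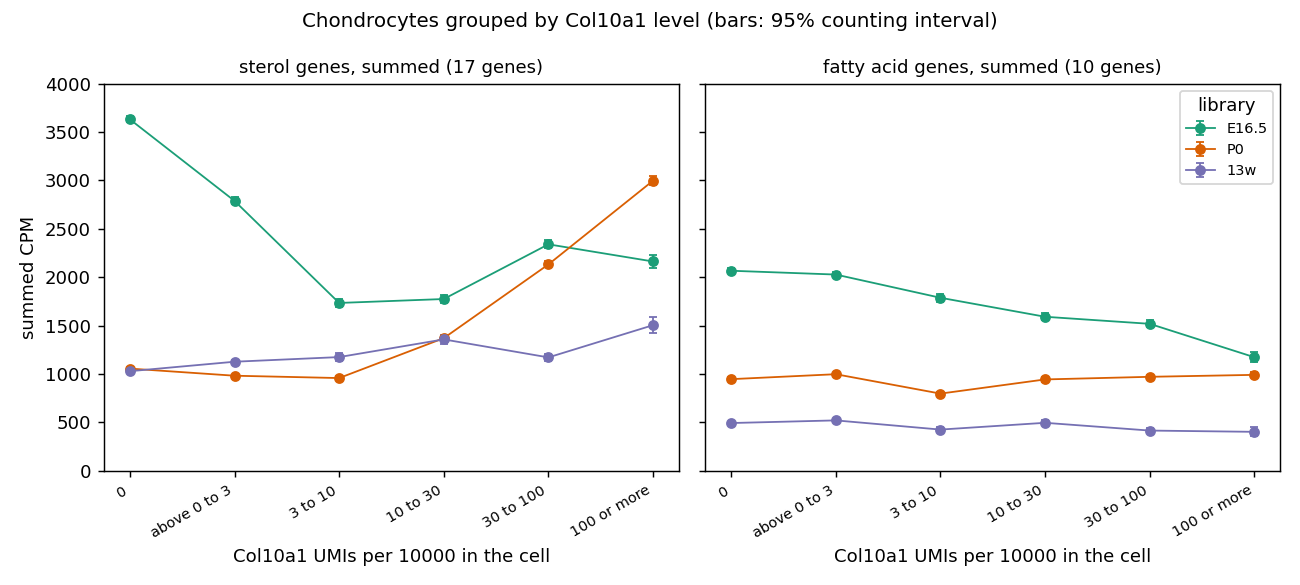
Summed CPM of the 17 sterol genes (left) and the 10 fatty acid genes (right) in chondrocytes grouped by their own Col10a1 level, 1 line per library, with 95% counting intervals. At P0 the sterol sum reaches 2997 CPM in the top bin while the fatty acid sum stays between 797 and 998 CPM.

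The levels were spread over many cells. With each cell thinned to 3000 UMIs, Col10a1-low chondrocytes had a median of 8 sterol UMIs at E16.5 (quartiles 4 and 14, 745 cells), 2 at P0 (quartiles 1 and 4, 1144 cells) and 2 at 13w (quartiles 1 and 4, 1380 cells). Col10a1-high chondrocytes had a median of 5 at E16.5 (quartiles 3 and 8, 246 cells), 6 at P0 (quartiles 3 and 9, 527 cells) and 2 at 13w (quartiles 1 and 6, 184 cells). In the E16.5 Col10a1-low class the lower quartile cell thus held as many sterol UMIs as the upper quartile cell of the same class at P0. Fatty acid UMIs had medians of 6, 2 and 1 in Col10a1-low and of 4, 2 and 1 in Col10a1-high chondrocytes at E16.5, P0 and 13w.

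Other genes of the same pathways were counted in the contrast of Col10a1-high chondrocytes against Col9a1-low cells, in which 18.3% of all genes rose and 22.5% fell. The shares called in these small lists lay on both sides of that background, and nothing is read from them about the lists. In the list of SREBP processing and LXR genes, 1 of 9 rose (Insig2, a relative of Insig1) and 1 fell (Abcg1, a cholesterol exporter) in Col10a1-high chondrocytes against Col9a1-low cells by edgeR. Insig2 also rose in the Col10a1-high over the Col10a1-low class, with a log2 fold change of 1.23 ± 0.26 (SE; edgeR adjusted p = 0.0439), and unlike Insig1 it was higher there in each library, with log2 ratios of 1.72, 0.80 and 0.68 at E16.5, P0 and 13w. Among 10 other isoprenoid and sterol genes, 3 rose in Col10a1-high chondrocytes against Col9a1-low cells (among them Tm7sf2, a sterol reductase, and Osbpl9, a lipid transfer protein) and 2 fell (Pdss1 and Hsd3b7). Among 16 tested genes of other fatty acid and glycerolipid synthesis, 3 rose (Tecr, Lpin1 and Slc25a1, the mitochondrial citrate carrier) and 1 fell (Elovl5, an elongase). Of the genes named here, Abcg1, Tm7sf2, Pdss1 and Lpin1 were below 10 CPM over all cells at each stage. Slc25a1 had a log2 fold change of 1.25 ± 0.22 in the Col10a1-high and 1.24 ± 0.22 in the Col10a1-low class (SE; edgeR adjusted p = 0.00391 and 0.00754). Fads3, a relative of Fads1 and Fads2, was lower at 13w than at P0 over all cells, with 26.3 CPM at 13w and 90.2 CPM at P0 (log2 ratio -1.78).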

How the data were processed

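Each library's cells were live-sorted and sequenced once, 1 pooled library per stage. The authors deposited raw UMI counts per gene and barcode. Per the file headers these come from Cell Ranger, version 6.1.2, and the submitters' processing notes name GRCm39 as the build. Only promoter windows use another build, that of the RefSeq table. The members and gene lists were chosen with earlier results of these data known.

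Cells were filtered as stated (Python 3.11.15, scanpy 1.11.5, scipy 1.17.1), counts were summed per library and class, and CPM used the class total. Scrublet's automatic threshold marked 5 cells of the E16.5, 1 of the P0 and 0 of the 13w library and is treated as a failed call, so doublets stayed in, and an alternative removed the 201, 164 and 572 cells with the highest scores. Classes were tested in edgeR 4.0.16 (R 4.3.3) with trimmed-mean factors, filterByExpr and a library block, leaving 4 residual degrees of freedom; DESeq2 1.42.0 was an alternative. The 3 libraries differ in stage, so these p-values set a class difference against its spread over stages. Intervals are exact and cover counting error only, not mice or libraries. Both procedures were tested on simulated data. Named with full values were called members with the widest stage ratios or the lowest adjusted p (at most 8 a comparison), Srebf1, Srebf2, Insig1, Fasn, Scd1, Scd2, Hmgcs1, Sqle, Idi1 and Fdps. Other members are named from their values, and some genes of the other lists are not reported here by name. Alternatives changed the scaling, CPM minimum, fold, depth, class thresholds, doublets, cycling cells, other cell types and libraries. Near-identical gene copies were not resolved beyond the deposited counting.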

Additional observations from a re-analysis of the deposited data

Results flagged for a closer look

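Effects that ran in opposite directions in 2 groups were singled out, and neither difference between groups was tested, since each group is 1 library. Sqle had a log2 ratio of Col10a1-high over Col10a1-low chondrocytes of 1.37 at P0 and of -1.08 at E16.5, past 2-fold both times. Hsd17b7 had a log2 ratio of P0 over E16.5 of 1.56 in Col10a1-high chondrocytes and of -1.18 in Col10a1-low chondrocytes, again past 2-fold both times.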

How the results depend on the processing

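Counts of members called lower at P0 than at E16.5 were 2 instead of 4 in all cells and 6 instead of 10 in Col9a1-low cells with either trimmed-mean or median-of-ratios factors. At 13w against P0 these factors gave 4 lower instead of 12 in all cells, 6 instead of 13 in Col10a1-high chondrocytes, 3 and 2 instead of 6 in Col10a1-low chondrocytes with 7 higher instead of 4, and 2 higher instead of 1 in Col9a1-low cells. A 1.5-fold threshold gave, at P0 against E16.5, 16 lower in all cells, 5 higher and 5 lower in the Col10a1-high class and 16 lower in Col9a1-low cells; at 13w against P0 it gave 21 lower in the Col10a1-high class, 10 higher and 12 lower in the Col10a1-low class, and 9 higher and 10 lower in Col9a1-low cells; and between Col10a1-high and Col10a1-low chondrocytes 1 higher and 13 lower at E16.5 and 2 lower at 13w. Leaving out cells positive for other cell type markers gave 16 lower at P0 in Col9a1-low cells and, at 13w against P0, 6 lower in all cells, 3 lower in the Col10a1-low class, and 6 higher and 1 lower in Col9a1-low cells. This setting also took out many chondrocytes. At P0 it removed 39.5% of Col10a1-low chondrocytes and 23.9% of Col9a1-low cells, against 0.168% and 2.84% without the mural and neural lists. At 13w against P0, thinning gave 7 lower in all cells and 2 higher in Col9a1-low cells, equal class weights 7 lower in all cells, and dropping cycling cells or the CPM minimum 2 higher in Col9a1-low cells. A Col9a1 threshold of 10 left 1 member lower in Col10a1-high than in Col10a1-low chondrocytes at E16.5 instead of 4, and removing doublets gave 1 lower instead of 0 at 13w. The cause of these moves was not tested, apart from what each setting itself takes out. The share of all genes called was not computed for these alternatives or those below. The counts therefore show only how the members' calls move, not whether they exceed that share.

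For the edgeR contrasts against Col9a1-low cells, library totals gave 1 lower in the Col10a1-high class and 11 higher in the Col10a1-low class. Without the library block 6 instead of 24 members rose in the Col10a1-high class and 1 instead of 18 in the Col10a1-low class. No paired analysis was possible because each stage has 1 library, beyond this block, which pairs the classes of a library. Leaving out a library gave 13 to 21 higher in the Col10a1-high class, 0 to 15 in the Col10a1-low class, and 0 to 2 in Col10a1-high over Col10a1-low chondrocytes. In this last contrast, median-of-ratios factors, no filter on low counts, doublet removal and thinning each gave 1 higher and DESeq2 gave 2, instead of 0. The balance of higher and lower calls at 13w against P0 turned from mostly lower to mostly higher in Col10a1-low chondrocytes with either set of factors. It also turned in Col9a1-low cells when those positive for other cell type markers, mural and neural lists included, were left out. No called ratio or fold change of a single named member changed sign under any alternative run. Of the values of single members, 518 stage values moved by less than their interval or spread and 247 by more, and 236 class values kept their call while 20 lost it. Stage ratios rest on 1 pooled library each, so no depth can show variation between mice.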

Other observations

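Of 11 genes of lipid droplets and fatty acid uptake, 1 rose in Col10a1-high chondrocytes against Col9a1-low cells by edgeR and 4 fell, while 18.3% of all genes rose and 22.5% fell. The list's median log2 fold change was -0.92, against -0.09 over all genes. The gene that rose was Fabp3, a fatty acid binding protein, by 3.80 ± 0.69 (SE; adjusted p = 0.0043), and the 4 that fell were Cd36, a fatty acid transporter (-2.56 ± 0.62), Slc27a1, another transporter (-1.19 ± 0.26), Lipe, a lipase (-1.02 ± 0.35), and Plin3, a droplet coat protein (-0.70 ± 0.15; edgeR adjusted p between 0.00865 and 0.0479). In Col10a1-low chondrocytes the same list gave 1 higher (Fabp3) and 4 lower (Cd36, Slc27a1, Lipe and Plin2), while 10.6% of all genes rose and 14.3% fell. Some of these genes were near the floor. Cd36 had 0.736, 0.745 and 0.999 CPM over all cells at E16.5, P0 and 13w. Lipe had 3.04, 2.72 and 1.66 CPM and Slc27a1 4.83, 3.03 and 3.46 CPM, each below the 10 CPM asked of stage ratios. Over all cells the list summed to 653 CPM at E16.5, 321 CPM at P0 and 165 CPM at 13w, and Fabp3 had 3.24 CPM at 13w and 44.5 CPM at P0, and Fabp5 had 53.1 CPM at 13w and 180 CPM at P0, log2 ratios of -3.78 and -1.76.

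Of 11 genes of fatty acid oxidation, 3 rose (among them Cpt2 and Ppard) and 1 fell (Cpt1a, the mitochondrial entry step) in Col10a1-high chondrocytes against Col9a1-low cells, against the same 18.3% and 22.5% of all genes, and Cpt1a also fell in Col10a1-low chondrocytes. Cpt1a was low, with 2.81, 2.13 and 5.44 CPM over all cells at E16.5, P0 and 13w. In Col10a1-high chondrocytes 9 of the 11 log2 fold changes were above 0, with a median of 0.52. None of the 9 measured oxidation genes was called at P0 against E16.5 or at 13w against P0 over all cells. Of all measured genes, 5.31% were called higher and 8.72% lower at P0, and 8.46% higher and 7.93% lower at 13w. With so few genes in the list, nothing is read from the lack of calls. Ppard, a nuclear receptor for fatty acids, rose in Col10a1-high over Col10a1-low chondrocytes, by 0.97 ± 0.22 (SE; edgeR adjusted p = 0.0496).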
